A study of Mus musculus with 2 samples.

Results

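Neurexins, neuroligins and teneurins are families of cell surface proteins that join neurons to one another. The 9 genes described here (Nrxn2, Nrxn3, Nlgn1, Nlgn2, Nlgn3, Tenm1, Tenm2, Tenm3 and Tenm4) were listed by symbol, under a rule that uses no measured value, from the 55536 genes of the GENCODE M21 tables, and all 9 were listed in both libraries, with 80 annotated transcripts. RNA of forebrain from B6NCrl mouse embryos at embryonic day 12.5, of both sexes and labelled healthy, had been sequenced in 2 libraries. Pool 1 joined the tissue of 120 embryos and pool 2 that of 68, and the labels call these pools biological replicates. Each library was started from 10 ng of RNA, reverse transcribed from oligo-dT, amplified as full-length cDNA with a SMARTer low-input kit and cut by Nextera tagmentation, with synthetic ERCC RNAs added as spike-ins. The labels name a single group and no contrast, so the comparisons are between members, between transcripts of a member and between the pools. No test was run, since the smallest two-sided p that exact sign flips of 2 pools allow is 0.5.

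Neurexins are mostly presynaptic receptors, made from separate promoters as a long alpha form and a shorter beta form, and diversified further at several alternatively spliced sites. Neuroligins are postsynaptic ligands of neurexins, with Nlgn1 known mainly from excitatory synapses, Nlgn2 from inhibitory synapses and Nlgn3 from both. Teneurins are very large proteins that bind teneurins or latrophilins on a facing cell and are known for matching axons with their targets. At the stage sampled, the forebrain holds mainly dividing progenitors and young neurons, and most synapses form later.

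The libraries held 33373843 gene counts in pool 1, against 34406648 in pool 2, and of these the members held 0.0591% in pool 1, against 0.0578% in pool 2. Levels are in TPM, transcripts per 1000000 with transcript length taken into account, and a gene was called detected where it reached a TPM of 1 in each pool. Forebrain markers were detected in 9 of 9 cases, from Six3 at 21.4 TPM in pool 1, against 20.5 TPM in pool 2 up to Dlx1 at 234 TPM in pool 1, against 162 TPM in pool 2. Markers of neurons were detected in 11 of 11 cases and summed to 2417 TPM in pool 1, against 2220 TPM in pool 2, and markers of progenitors in 8 of 8 cases, with sums of 2589 and 2412 TPM in pools 1 and 2. Of the astrocyte markers 1 of 4 was detected, and Gfap stood at 0.02 TPM in pool 1, against 0.07 TPM in pool 2. Other cells were present in both pools. Mesenchyme markers were detected in 6 of 6 cases with sums of 583 and 703 TPM in pools 1 and 2, and erythroid markers in 5 of 5 with 9689 and 13072 TPM. Endothelial markers were detected in 5 of 5 cases with 71.8 and 70.1 TPM, and microglial markers in 4 of 5 with 26.8 and 29.7 TPM. Markers of the oligodendrocyte lineage were detected in 5 of 7 cases with 65.8 and 57.8 TPM, and Mag was lowest at 0.10 TPM in pool 1, against 0.27 TPM in pool 2. Whether cells of that lineage were present was not settled by these markers. The part of these other cells in the members' levels was not tested, and in bulk tissue fewer cells of a type cannot be told apart from less RNA per cell.

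All 9 members were detected in both pools, beside 58.9% of the 22028 annotated protein-coding genes. Nrxn3 and Tenm4 had the highest levels and Tenm1 the lowest, a spread of about an order of magnitude. The members' median of 13.6 TPM lay below the median of 21.9 TPM over all detected protein-coding genes. Every ± below is an SD over n = 2 pools.

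Among the neurexins, Nrxn3 (ENSMUSG00000066392.11, chromosome 12, 88722876 to 90334935, plus strand, GRCm38) measured 55.5 TPM in pool 1, against 48.7 TPM in pool 2, a mean of 52.1 ± 4.80 TPM. Nrxn2 (ENSMUSG00000033768.17, chromosome 19, 6418731 to 6544169, plus strand) measured 13.7 TPM in pool 1, against 13.4 TPM in pool 2, a mean of 13.6 ± 0.205 TPM. Nrxn3 was thus the higher neurexin in both pools, and the values of the pair did not overlap.

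Among the neuroligins, Nlgn3 (ENSMUSG00000031302.16, chromosome X, 101299168 to 101325963, plus strand) led with 28.3 TPM in pool 1, against 25.2 TPM in pool 2, a mean of 26.8 ± 2.23 TPM. Nlgn2 (ENSMUSG00000051790.15, chromosome 11, 69823122 to 69837784, minus strand) had 10.9 TPM in pool 1, against 10.4 TPM in pool 2, a mean of 10.7 ± 0.347 TPM. Nlgn1 (ENSMUSG00000063887.13, chromosome 3, 25426215 to 26332460, minus strand) had 6.51 TPM in pool 1, against 7.77 TPM in pool 2, a mean of 7.14 ± 0.891 TPM. The order Nlgn3, Nlgn2, Nlgn1 held in both pools with no overlap between neighbours.

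Among the teneurins, Tenm4 (ENSMUSG00000048078.16, chromosome 7, 96171246 to 96911093, plus strand) had 41.2 TPM in pool 1, against 48.8 TPM in pool 2, a mean of 45.0 ± 5.37 TPM. Tenm3 (ENSMUSG00000031561.16, chromosome 8, 48227682 to 48843951, minus strand) had 30.3 TPM in pool 1, against 32.9 TPM in pool 2, a mean of 31.6 ± 1.82 TPM. Tenm2 (ENSMUSG00000049336.16, chromosome 11, 36006656 to 37235964, minus strand) had 7.14 TPM in pool 1, against 8.57 TPM in pool 2, a mean of 7.86 ± 1.01 TPM. Tenm1 (ENSMUSG00000016150.15, chromosome X, 42527866 to 43429126, minus strand) had 4.55 TPM in pool 1, against 5.30 TPM in pool 2, a mean of 4.92 ± 0.530 TPM. All 4 teneurins read lower in pool 1 than in pool 2, and their order was the same in both.

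Across the 9 genes the pools overlapped between 2 pairs of neighbours in the order of levels, Nrxn3 with Tenm4 and Tenm2 with Nlgn1, so the order within those pairs was not settled by the pools. The families summed to 69.2 TPM in pool 1, against 62.1 TPM in pool 2 for the 2 neurexins, 45.8 and 43.4 TPM for the 3 neuroligins, and 83.2 and 95.5 TPM for the 4 teneurins. Each member rested on 391 to 4418 expected counts per library, and 3 counts would give at most 0.0674 TPM, so all levels lay far above the counting floor. In the older annotation, release M4, the mean level of 8 members was 1.03 to 1.07 times that in M21, and that of Tenm3 was 1.35 times, at 42.7 TPM.

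A gene's TPM is the sum over its annotated transcripts, and for several members most of it lay in transcripts that encode no complete protein. GENCODE transcripts were divided into complete coding ones, coding ones whose annotated ends are incomplete, targets of nonsense-mediated decay, and non-coding ones such as retained introns. Of the 80 transcripts, 34 were complete coding, 10 incomplete coding, 2 decay targets and 34 non-coding, and 20 of them were at 0 TPM in both pools. Complete coding transcripts held 20.3% of the mean TPM of Nrxn3, 20.3% of Tenm1, 27.8% of Tenm4 and 31.9% of Nrxn2. In the other 5 members they held 61.4% for Nlgn3, 63.1% for Tenm2, 76.4% for Nlgn1, 76.8% for Tenm3 and 96.5% for Nlgn2.

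Thus 4 of the 9 members had under 50% of their TPM in complete coding transcripts, against 21.1% of the 8869 detected protein-coding genes with at least 4 annotated transcripts. The 9 members each have 4 or more transcripts, and the bound of 4 was chosen after the values were seen. In expected counts, which are not divided by length, complete coding transcripts held a larger share, 39.2% for Nrxn3, 66.2% for Tenm1, 80.8% for Tenm4 and 69.7% for Nrxn2. On complete coding TPM alone the order of the members was another one, with Tenm3 first at 23.7 TPM in pool 1, against 24.8 TPM in pool 2. Nlgn3 followed with 18.1 and 14.8 TPM in pools 1 and 2, Tenm4 with 12.3 and 12.7 TPM, Nrxn3 with 11.8 and 9.30 TPM and Nlgn2 with 10.4 and 10.2 TPM. Nlgn1 had 5.11 and 5.80 TPM, Tenm2 4.87 and 5.04 TPM, Nrxn2 3.46 and 5.20 TPM, and Tenm1 1.00 TPM in each pool. Here the pools overlapped between Nrxn3 and Nlgn2 and between Tenm2 and Nrxn2.

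**Figure D1:**
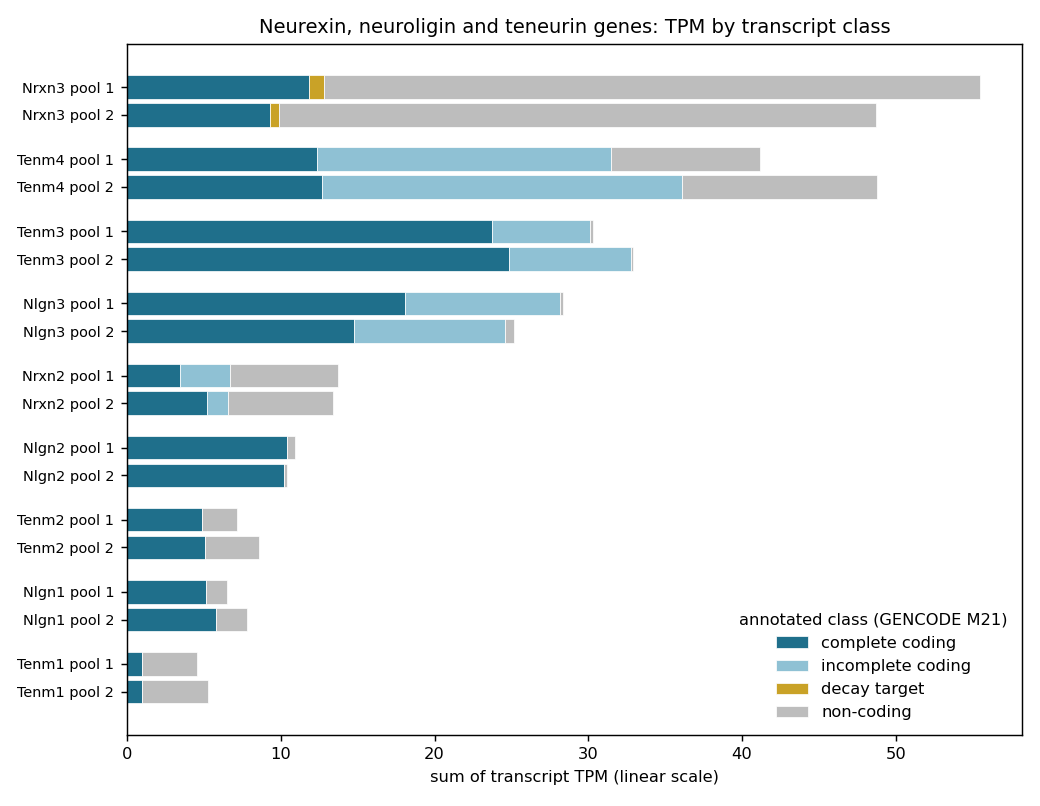
Sum of transcript TPM (horizontal axis, linear) for each of the 9 genes, with the bar of pool 1 above that of pool 2 and colours for the annotated class of the transcripts. Nrxn3 reached 55.5 TPM in pool 1, against 48.7 TPM in pool 2, of which 11.8 and 9.30 TPM lay in complete coding transcripts, whereas nearly the whole bar of Nlgn2 was complete coding.

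The leading transcript of Nrxn3 was not a protein-coding one. Nrxn3-204, annotated as a retained intron of 2278 bases within the first 128 kb of the gene, measured 28.6 TPM in pool 1, against 27 TPM in pool 2, which is 53.5% ± 2.74 of the gene's TPM and 35.2% of its counts. Nrxn3-209, another retained intron transcript of 4086 bases, held 17.8% ± 2.07 of the TPM. The alpha neurexin transcript Nrxn3-205, which spans nearly the whole gene with 20 exons and a coding sequence of 4713 bases, measured 8.21 TPM in pool 1, against 6.66 TPM in pool 2, or 14.2% ± 0.794 of the TPM and 33.6% of the counts. Both retained intron transcripts start at the upstream end of the gene, 71.6 kb before the annotated start of Nrxn3-205. The exon from 71.63 to 73.02 kb is the first of Nrxn3-205 and an internal one of both retained intron transcripts. Whether the model of Nrxn3-205 lacks an upstream exon was not tested. The 6 transcripts that start there, none of them complete coding, held 76.8% of the TPM and 59.7% of the counts in pool 1, and 79.2% of the TPM and 61.4% of the counts in pool 2 (starts within 5 kb were joined, a rule chosen after the values were seen). At Nrxn3 the gene shares 439 exon bases with Gm37980 on the opposite strand, which measured 0.55 TPM in pool 1, against 0.61 TPM in pool 2, and since the use of strand in counting is not given in the sources used here, reads of such overlaps are uncertain.

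Nrxn2 divided its TPM among several transcripts, none of them above 30%. The highest share, 29.8% ± 0.278, was that of Nrxn2-213, a processed transcript of 576 bases in the 3′ part of the gene, with 4.05 TPM in pool 1, against 4.02 TPM in pool 2 but 6.16% of the counts. Nrxn2-209, an incomplete coding transcript, held 23.8% in pool 1, against 10.1% in pool 2, the largest difference in share between the pools, 13.7 percentage points, among the 32 member transcripts whose mean TPM reached 1. The median of that difference over the 32 was 3.63 points. The retained intron transcript Nrxn2-210 held 16.4% ± 3.62. The alpha neurexin transcript Nrxn2-205, with 23 exons, measured 2.19 TPM in pool 1, against 2.21 TPM in pool 2 and held 46.2% of the counts. Its deposited interval ran from 0.899 to 2.12 TPM in pool 1 and from 0.773 to 2.17 TPM in pool 2, so that both point estimates lay just above it. Nrxn2 shares 207 exon bases with the antisense gene Gm14964, at 6.92 TPM in pool 1, against 6.55 TPM in pool 2, and 682 with Slc22a12, at 0.04 TPM in each pool.

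**Figure D2:**
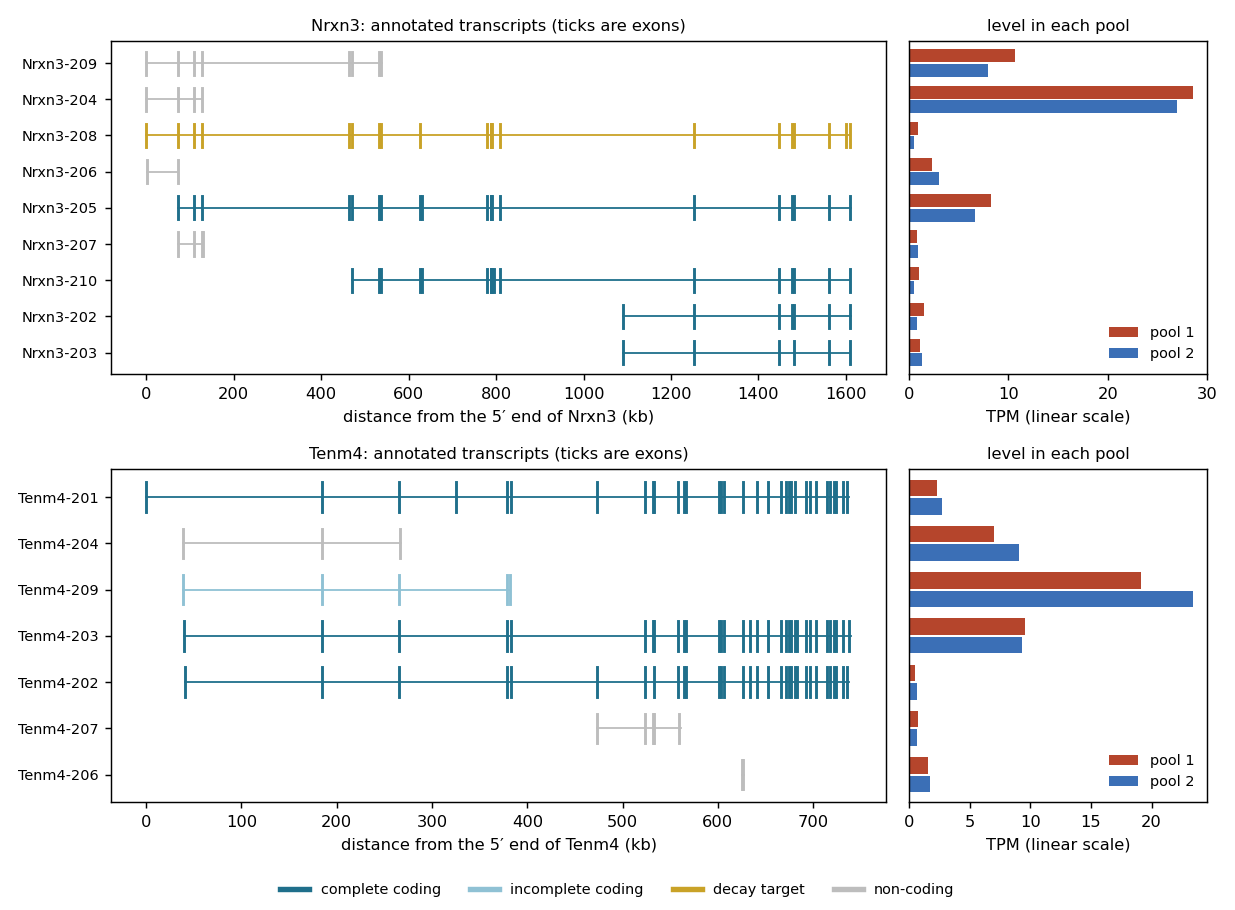
Annotated transcripts of Nrxn3 and Tenm4 with a mean TPM of at least 0.5, drawn against the distance from the 5′ end of the gene in kb with ticks for exons (left), and their TPM on a linear axis with pool 1 above pool 2 (right). In both genes the highest bar belongs to a short transcript at the 5′ side, Nrxn3-204 with 28.6 TPM in pool 1, against 27 TPM in pool 2 and Tenm4-209 with 19.1 TPM in pool 1, against 23.4 TPM in pool 2.

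Alpha-type transcripts outweighed beta-type ones in Nrxn3, and in Nrxn2 the pools differed. Complete coding transcripts were classed as alpha-type with a coding sequence of at least 4000 bases, beta-type with one under 2000 bases, and intermediate otherwise. In Nrxn3 beta-type transcripts held 21.7% in pool 1, against 22.7% in pool 2, or 22.2% ± 0.728 of the complete coding TPM, beside 70.5% ± 1.52 in the alpha type and 7.29% ± 2.25 in intermediate models. By expected counts the beta-type share of Nrxn3 was 10.5%. In Nrxn2 the beta type held 31.8% in pool 1, against 54.4% in pool 2, a mean of 43.1% ± 16.0, so the 2 types could not be ordered beyond the spread of the pools. The alpha type of Nrxn2 was level between the pools, at 2.36 TPM in pool 1, against 2.37 TPM in pool 2, and the beta type was at 1.10 TPM in pool 1, against 2.83 TPM in pool 2. Nearly all of the beta-type TPM lay in Nrxn2-202, whose deposited intervals of 0.736 to 1.73 TPM in pool 1 and 2.27 to 3.40 TPM in pool 2 did not overlap.

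The use of the exon at splice site 4 could be read only in part. In Nrxn2 the models that lack it were at low levels. In Nrxn3 models with and without it could be compared among beta-type transcripts alone. This exon is known as the switch that sets which postsynaptic ligands a neurexin binds, and KH-domain proteins of the Khdrbs family are known to promote its skipping in neurons. Inclusion is given here as the share of TPM in complete coding transcripts, among those spanning the exon, whose model holds it. It therefore reads transcript models and not junction reads. The exon of Nrxn3, the higher neurexin, is shown because, of the annotated beta-type models compared here, Nrxn3-202 holds it and Nrxn3-203 lacks it. The exon is in capitals, with 12 bases of the neighbouring exons on each side in lower case. The sequence reads 5′ to 3′ on the plus strand as in GENCODE M21 transcripts. The capitals lie at chr12:90199147-90199236 (GRCm38).
Nrxn3 splice site 4 exon: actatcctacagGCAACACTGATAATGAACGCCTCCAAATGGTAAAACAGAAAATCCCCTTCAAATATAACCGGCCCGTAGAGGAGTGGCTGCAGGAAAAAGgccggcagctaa
Inclusion was 94.5% in pool 1, against 95.4% in pool 2 for Nrxn2, a mean of 94.9% ± 0.619, and 90.6% in pool 1, against 86.2% in pool 2 for Nrxn3, a mean of 88.4% ± 3.09. The value for Nrxn2 rests on 2 models without the exon. Nrxn2-204 had 0.17 TPM in pool 1, against 0.16 TPM in pool 2, and Nrxn2-203 had 0.02 TPM in pool 1, against 0.08 TPM in pool 2. Nrxn2-204 lacks other exons as well and Nrxn2-203 ends in another last exon, so this value also depends on which models are annotated. The value for Nrxn3 is largely set by the annotation, since the alpha-type model Nrxn3-205, with most of the TPM, holds the exon and no alpha-type model lacks it. In Nrxn3 a single complete coding model lacks the exon, the beta-type Nrxn3-203, with 1.11 TPM in pool 1, against 1.28 TPM in pool 2. Its beta-type counterpart that holds the exon, Nrxn3-202, had 1.45 TPM in pool 1, against 0.83 TPM in pool 2. Their deposited intervals overlapped in both pools, from 0.305 to 1.87 TPM for Nrxn3-203 and from 0.616 to 2.16 TPM for Nrxn3-202 in pool 1. The model with the exon was thus the higher one in pool 1 and the model without it in pool 2. These models also differ outside the exon. Nrxn3-202 has 3654 bases and a coding sequence of 1701 bases, against 2699 and 1290 bases for Nrxn3-203. Their levels therefore do not read the exon alone, and alpha transcripts of Nrxn3 without the exon could not be seen here.

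Other alternative segments of the neurexins also had unequal inclusion values. In Nrxn2 an exon of 72 bases and one of 27 bases, which the same models hold, were included at 92.8% in pool 1, against 93.2% in pool 2. Of the complete coding models that span them, Nrxn2-204 alone lacks them. In Nrxn3 an exon of 27 bases was included at 11.3% in pool 1, against 7.37% in pool 2, a mean of 9.36% ± 2.81. It is held by the intermediate models Nrxn3-201 and Nrxn3-210 and skipped by the alpha-type Nrxn3-205 alone. The value thus repeats the split between these models, and no alpha-type model holds the exon. An exon part of 9 bases, held by the beta-type models alone, stood at 21.7% in pool 1, against 22.7% in pool 2 and repeats the beta-type share given above. By expected counts the mean inclusion of the 27-base exon of Nrxn3 was 4.07%.

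All 3 neuroligins had a larger share of TPM in complete coding transcripts than either neurexin. Nlgn2, the member of inhibitory synapses, held 96.5% of its TPM in a pair of complete coding transcripts with the same coding length of 2508 bases that differ at their 5′ ends. Nlgn2-201 had 4.73 TPM in pool 1, against 5.43 TPM in pool 2, and Nlgn2-202 had 5.68 TPM in pool 1, against 4.76 TPM in pool 2. Which of the pair was higher changed between the pools, and their deposited intervals overlapped in each. No other annotated gene shares exon bases with Nlgn2.

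Nlgn3 was led by Nlgn3-201, a complete coding transcript of 8465 bases, with 16.6 TPM in pool 1, against 12 TPM in pool 2, or 53.0% ± 7.59 of the TPM and 76.8% of the counts. Nlgn3-203, an incomplete coding transcript of 1852 bases, followed with 10.1 TPM in pool 1, against 9.81 TPM in pool 2, or 37.2% ± 2.42 of the TPM and 11.4% of the counts. The same-strand transcript gene Gm21986 shares 3823 exon bases with Nlgn3 and measured 1.48 TPM in pool 1, against 1.04 TPM in pool 2, so reads of the shared bases could be divided either way.

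Nlgn1 spread its TPM over 3 transcripts. Nlgn1-205, of 11807 bases and from the most upstream start, held 37.7% ± 3.81 with 2.63 TPM in pool 1, against 2.72 TPM in pool 2. Nlgn1-203, from a start 179 kb downstream, held 32.0% ± 4.13 with 1.89 TPM in pool 1, against 2.71 TPM in pool 2. The retained intron transcript Nlgn1-204 held 23.4% ± 2.72 with 1.40 TPM in pool 1, against 1.97 TPM in pool 2. All 3 read lower in pool 1 than in pool 2. Nlgn1 shares 1229 exon bases with the antisense gene A830092H15Rik, at 0.88 TPM in pool 1, against 0.18 TPM in pool 2.

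Neuroligins are known to be spliced at a site A, and Nlgn1 also at a site B, where an insert of 27 bases is known to weaken binding to alpha neurexins. The inserts are shown with capitals and flanks as above, read on the strand of the gene. They lie at chr3:25920178-25920237 and chr3:25439865-25439891 on the minus strand for Nlgn1 and at chrX:101303072-101303131 on the plus strand for Nlgn3.
Nlgn1 60-base exon: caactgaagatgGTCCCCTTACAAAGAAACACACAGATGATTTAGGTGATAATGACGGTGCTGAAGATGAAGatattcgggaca
Nlgn1 27-base insert of site B: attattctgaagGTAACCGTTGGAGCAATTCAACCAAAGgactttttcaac
Nlgn3 60-base exon: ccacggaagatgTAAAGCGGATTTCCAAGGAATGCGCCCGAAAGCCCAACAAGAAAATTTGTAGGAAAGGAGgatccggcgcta
The 60-base exons shown for Nlgn1 and Nlgn3, paired by equal length alone, matched at 16 of 60 bases, or 26.7%. A further exon of Nlgn3, from 7.907 to 7.966 kb, was not compared. It is held by Nlgn3-201, Nlgn3-202 and Nlgn3-206. The incomplete coding Nlgn3-203, with 10.1 TPM in pool 1, against 9.81 TPM in pool 2, spans and lacks it and does not enter the inclusion values. Both Nlgn1 inserts were included at 51.5% in pool 1, against 46.9% in pool 2, a mean of 49.2% ± 3.23. They share these values because Nlgn1-201 and Nlgn1-205 hold both and Nlgn1-202 and Nlgn1-203 hold neither, so the 2 sites could not be read separately. By expected counts the same inclusion was 78.4%, with 69.0% of all counts of the gene in Nlgn1-205. In Nlgn3 the 60-base exon was at 8.51% in pool 1, against 0% in pool 2, all from Nlgn3-206, with 1.54 TPM in pool 1 and a value listed at 0 in pool 2. A partly coding segment of 503 bases, which Nlgn3-202 alone lacks, was at 100% in pool 1, against 81.2% in pool 2. Nlgn3-202 was listed at 0 TPM in pool 1, against 2.78 TPM in pool 2. Its deposited intervals overlapped, with an upper bound of 2.38 TPM in pool 1 and a lower bound of 1.65 TPM in pool 2. The deposited intervals of Nlgn3-206 overlapped, with upper bounds of 3.46 TPM in pool 1, against 1.19 TPM in pool 2.

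Among the teneurins, the transcript that leads in TPM was full-length in Tenm2 and Tenm3 and short in Tenm1 and Tenm4. Tenm3-201, of 29 exons with a coding sequence of 8145 bases, had 16.4 TPM in each pool, or 52.1% ± 3.11 of the gene's TPM and 76.7% of its counts. The incomplete coding Tenm3-202 held 21% ± 1.78 of the TPM and 1.89% of the counts, Tenm3-204, with a short coding sequence of 1485 bases, 13.4% ± 0.196 of the TPM, and the full-length Tenm3-206 11.4% ± 1.27. Tenm2-202, of 31 exons, had 4.87 TPM in pool 1, against 5.04 TPM in pool 2 and held 63.5% ± 6.65 of the TPM and 92.4% of the counts. The non-coding Tenm2-205 held 13.3% in pool 1, against 21.6% in pool 2, and the non-coding Tenm2-207, of 368 bases, 15.8% ± 1.67 of the TPM with 0.631% of the counts.

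The highest transcript of Tenm4 was Tenm4-209, an incomplete coding model of 704 bases, with 19.1 TPM in pool 1, against 23.4 TPM in pool 2, or 47.3% ± 1.13 of the TPM but 6.61% of the counts. Tenm4-203, a full-length model of 13172 bases, had 9.56 TPM in pool 1, against 9.30 TPM in pool 2, or 21.1% ± 2.93 of the TPM and 63.6% of the counts. The retained intron transcript Tenm4-204 held 17.8% ± 1.12. Tenm4-203, Tenm4-204 and Tenm4-209 start within the same cluster, 38.4 kb downstream of the annotated 5′ end, whose 6 transcripts held 88.7% of the TPM in pool 1 and 89.0% in pool 2. The difference of Tenm4 between the pools lay mostly outside its complete coding transcripts, which summed to 12.3 TPM in pool 1, against 12.7 TPM in pool 2.

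Tenm1, the lowest member, resembled Nrxn3 in how its TPM was divided. Tenm1-204, a non-coding transcript of 1143 bases at the upstream end, held 62.2% ± 6.89 of the TPM with 2.61 TPM in pool 1, against 3.55 TPM in pool 2, and 17.2% of the counts. The full-length Tenm1-203, which starts 261 kb further downstream, measured 0.89 TPM in pool 1, against 0.91 TPM in pool 2, or 18.4% ± 1.67 of the TPM and 61.6% of the counts. The retained intron transcript Tenm1-206 held 11.9% ± 4.00 of the TPM. The exon from 261.3 to 261.6 kb is the first of Tenm1-203 and an internal one of Tenm1-206. Whether the model of Tenm1-203 lacks upstream exons was not tested. Tenm1 shares 1465 exon bases with Sh2d1a on the opposite strand, at 0.97 TPM in pool 1, against 0.92 TPM in pool 2, while the overlaps of Tenm3 and Tenm4 with opposite-strand genes involved 114 and 988 exon bases and genes of at most 1.03 TPM.

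Teneurins carry 2 microexons that are known from cell adhesion and structural work to alter binding to partners on the facing cell, one of 27 bases between repeats of the EGF type and one of 21 bases in the beta-propeller. Their sequences are shown because they are closely alike between members, with capitals and flanks as above and on the strand of the gene. The 27-base exons lie at chr8:48313238-48313264 in Tenm3 (minus strand) and chr7:96805105-96805131 in Tenm4 (plus strand), and the 21-base exons at chr8:48287133-48287153 in Tenm3, chr7:96854717-96854737 in Tenm4 and chrX:42648394-42648414 in Tenm1 (minus strand).
Tenm3 27-base exon: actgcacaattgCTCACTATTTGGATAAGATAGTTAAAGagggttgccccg
Tenm4 27-base exon: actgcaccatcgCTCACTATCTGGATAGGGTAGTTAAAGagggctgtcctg
Tenm3 21-base exon: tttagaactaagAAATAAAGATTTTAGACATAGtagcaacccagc
Tenm4 21-base exon: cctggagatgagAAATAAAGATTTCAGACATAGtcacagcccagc
Tenm1 21-base exon: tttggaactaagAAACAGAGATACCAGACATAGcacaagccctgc
The 27-base exons of Tenm3 and Tenm4 were identical at 24 of 27 bases and their 21-base exons at 20 of 21. The 21-base exon of Tenm1 matched that of Tenm4 at 17 bases and that of Tenm3 at 16.

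In the M21 tables both microexons of Tenm3 were included at 83.8% in pool 1, against 80.2% in pool 2, a mean of 82.0% ± 2.51. Both microexons of Tenm4 were included at 81.1% in pool 1, against 78.5% in pool 2, a mean of 79.8% ± 1.83. Within each gene the pair shares its values, because a single full-length model, Tenm3-206 in Tenm3 and Tenm4-201 in Tenm4, lacks both. In Tenm1 the 21-base exon, which lies outside the naming rule and was added for its sequence, was at 100% in both pools on a coding level of 1.00 TPM. By the posterior mean it was at 71.4%. Tenm1-202, the model without it, was listed at 0 TPM with upper bounds of 0.464 TPM in pool 1, against 0.746 TPM in pool 2. The estimates of Tenm1-203, which holds it, lay just above their deposited upper bounds of 0.886 and 0.904 TPM in pools 1 and 2. Full inclusion was thus not settled. In Tenm4 an exon of 99 bases was included at 96.4% in pool 1, against 94.9% in pool 2, and one of 210 bases at 22.5% in pool 1, against 26.6% in pool 2. An untranslated exon of 97 bases of Tenm4 stood at 18.9% in pool 1, against 21.5% in pool 2.

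The inclusion values of Tenm4 changed with the annotation. In release M4 the mean inclusion of its 2 microexons was 27.1%, that of the 210-base exon was 87.8% and that of the untranslated exon was 72.9%. In M4 Tenm4-201 and Tenm4-202 are models of 13547 and 13469 bases, against 11021 and 10930 bases in M21, whereas Tenm4-203 has 13172 bases in both. With the longer models Tenm4-201 measured 8.60 TPM in pool 1, against 9.37 TPM in pool 2, and Tenm4-203 measured 1.95 TPM in pool 1, against 1.05 TPM in pool 2. The inclusion of the microexons in Tenm3 was 66.8% in M4, where a further model of 7827 bases, absent from M21 and not counted in that share, took 12.6 TPM in pool 1, against 13.5 TPM in pool 2. The part of the model lengths in these differences was not tested. For the segments of Nrxn2, Nrxn3, Nlgn1 and Nlgn3, M4 gave mean inclusions within 1 SD of the M21 values.

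**Figure D3:**
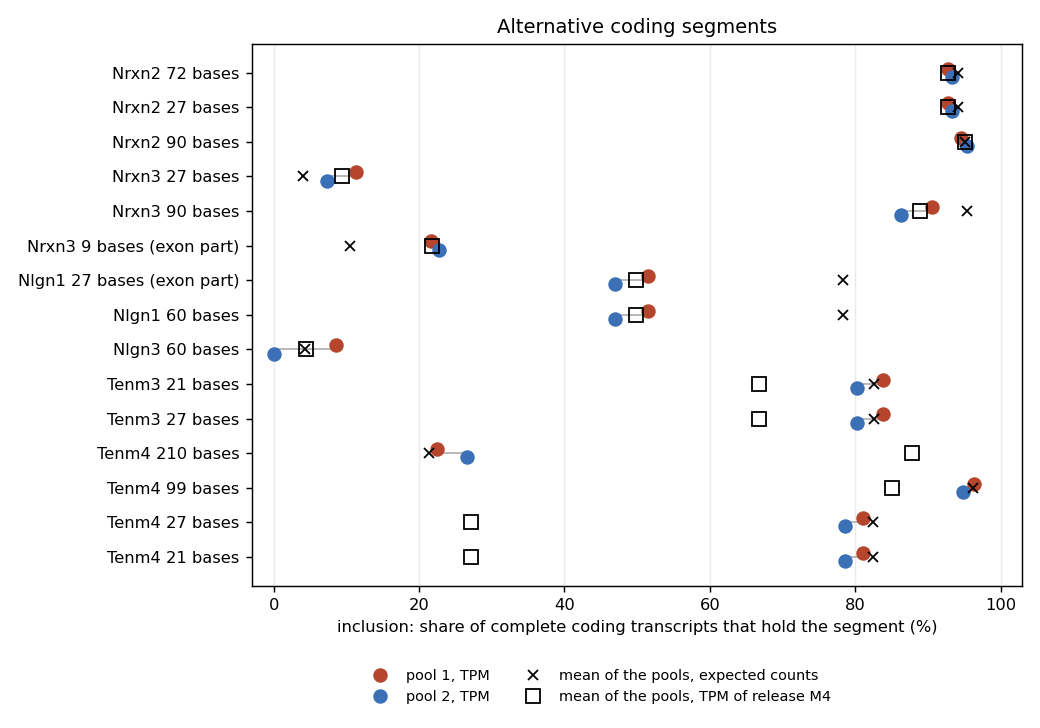
Inclusion of the 15 coding segments with intermediate use, as the percentage of complete coding TPM in models that hold the segment, with red points for pool 1 and blue points for pool 2. Crosses are means by expected counts and open squares are means in release M4, and the squares of the 27- and 21-base exons of Tenm4 stand at 27.1%, far from its points at 81.1% in pool 1, against 78.5% in pool 2.

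In all, 19 alternative coding segments were found among the members, every one a multiple of 3 bases long and 9 of them of 21 or 27 bases. Of these 15 were in intermediate use, between 5% and 95% in at least 1 pool, in 6 members. Nlgn2 had none and Tenm2 had a single segment of 3 bases, at 0% in both pools. The spread between the pools was below 10 percentage points for all 15. These leave out the partly coding segment of Nlgn3, at 100% in pool 1, against 81.2% in pool 2.

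Known partners of the 3 families were listed by function, and 57 of 63 were detected, with a median of 15.1 TPM. All 6 latrophilin and FLRT genes, which encode the facing-cell receptors of teneurins and their own ligands, were detected. Adgrl2 was highest, at 80.2 TPM in pool 1, against 81.8 TPM in pool 2, followed by Flrt3 at 55.9 TPM in pool 1, against 67.4 TPM in pool 2, and Flrt1 was lowest at 5.70 TPM in pool 1, against 6.25 TPM in pool 2. The latrophilins Adgrl1, at 23.7 TPM in pool 1, against 24.5 TPM in pool 2, and Adgrl3, at 22.8 TPM in pool 1, against 27.1 TPM in pool 2, were at lower levels than Adgrl2 in both pools.

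Of the surface ligands of neurexins other than neuroligins, 14 of 19 were detected, with a median of 4.62 TPM over the list. Calsyntenin Clstn1, at 45.3 TPM in pool 1, against 59.1 TPM in pool 2, the dystroglycan gene Dag1, at 53.0 TPM in pool 1, against 49.1 TPM in pool 2, and the neurexophilin gene Nxph4, at 48.7 TPM in pool 1, against 47.0 TPM in pool 2, led the list. The cerebellin gene Cbln3 and the C1q-like gene C1ql2 were lowest, Cbln3 at 0.21 TPM in pool 1, against 0.03 TPM in pool 2, and C1ql2 at 0.10 TPM in pool 1, against 0.31 TPM in pool 2. Grid1, which encodes a cerebellin receptor, was at 0.70 TPM in pool 1, against 1.18 TPM in pool 2. The neuroligin inhibitors Mdga1 and Mdga2, which cover the neurexin-binding face of neuroligins, were both detected, Mdga1 at 7 TPM in pool 1, against 6.90 TPM in pool 2 and Mdga2 at 7.70 TPM in pool 1, against 6.74 TPM in pool 2.

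Inside the cell, all 7 cytoplasmic partners of neurexins were detected, led by Lin7c at 127 TPM in pool 1, against 119 TPM in pool 2, with the scaffold kinase gene Cask at 14.7 TPM in pool 1, against 13.9 TPM in pool 2. All 12 scaffolds of neuroligins were detected, led by Magi1 at 40.8 TPM in pool 1, against 35.6 TPM in pool 2, and Dlg4, which encodes the postsynaptic density scaffold PSD-95, had 15.9 TPM in pool 1, against 19.5 TPM in pool 2. Of the 5 proteases that cut such ectodomains, all were detected, with Adam10 highest at 62.4 TPM in pool 1, against 61.7 TPM in pool 2. All 10 splicing regulators known to act on neurexins and neuroligins were detected. Ptbp2, a repressor of neuronal exons in young neurons, had 318 TPM in pool 1, against 306 TPM in pool 2, and Ptbp1, its counterpart in progenitors, 174 TPM in each pool. Of the Khdrbs genes, Khdrbs1 was highest at 180 TPM in each pool, with Khdrbs3 at 25.6 TPM in pool 1, against 22.6 TPM in pool 2 and Khdrbs2 at 14.9 TPM in pool 1, against 17.1 TPM in pool 2. Srrm4, an activator of neuronal microexons, had 16.9 TPM in pool 1, against 17.6 TPM in pool 2.

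**Figure D4:**
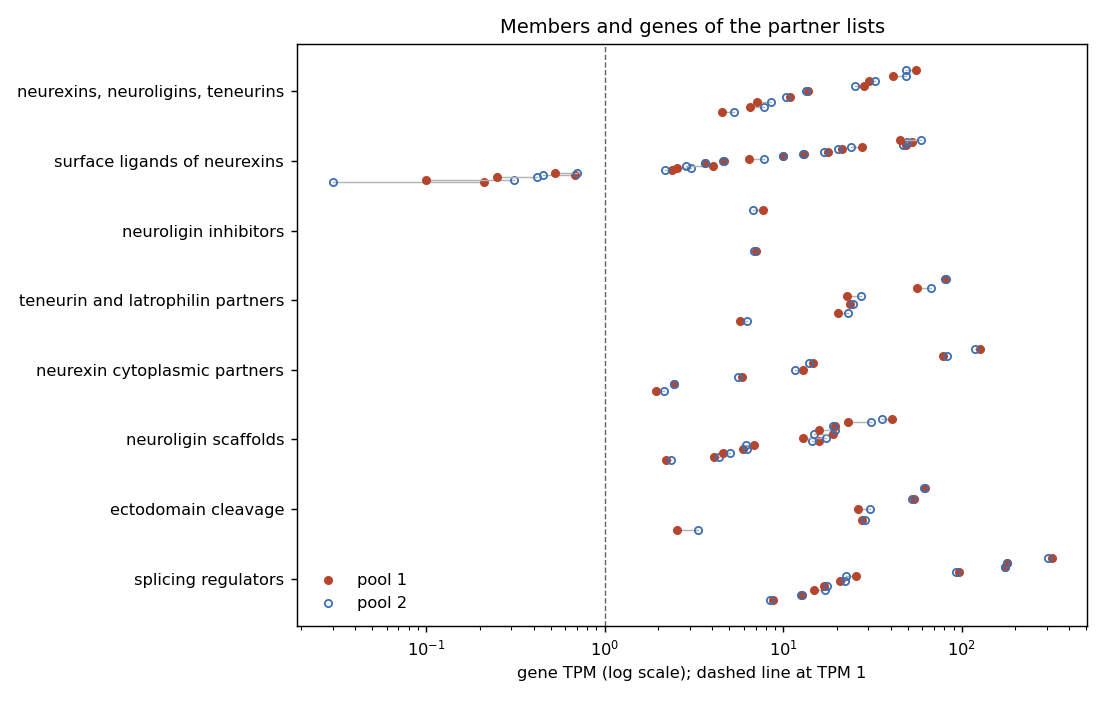
Gene TPM on a log axis for the 9 members (top) and for the partner lists other than the cerebellin receptors, with filled red points for pool 1 and open blue points for pool 2 and a dashed line at TPM 1. Points left of the line belong to 5 surface ligands of neurexins, and the splicing regulators reach 318 TPM in pool 1, against 306 TPM in pool 2.

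Between the pools no member differed by more than 1.5-fold. Of the 19063 genes whose mean count reached 10, 11.2% did. With no filter on counts that share was 32.5%, so it depends on the genes of low count. The members had 391 to 4418 counts per library. Genes of matching counts were not compared, so whether the members were steadier than other genes was not tested. Ratios are log2 of TMM-scaled expected counts, pool 1 over pool 2. Their exact binomial intervals at 95% treat rounded counts as independent draws and take in no other spread. PCR copies are not independent molecules, so the intervals can be too narrow even for counting error. Nlgn3, with 3592 counts in pool 1 and 3094 in pool 2, had a ratio of 0.29 with an interval of 0.22 to 0.36. Nrxn3, with 4018 counts in pool 1 and 3467 in pool 2, had a ratio of 0.29 with an interval of 0.22 to 0.35. These were the only members whose interval lay above 0, and 91.0% and 90.9% of all genes had a lower ratio than Nlgn3 and Nrxn3.

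Nrxn2, with 611 counts in pool 1 and 758 in pool 2, had a ratio of -0.24 with an interval of -0.39 to -0.08. The other 6 members lay between -0.12 for Nlgn1 and 0.06 for Nlgn2, and of these the interval of Tenm4, -0.13 to -0.004, left 0 out as well. The members' median was -0.05, against -0.003 over all genes, and 3 of 9 were higher in pool 1. With scaling by spike-in totals the median of all genes shifted to -0.17 and that of the members to -0.21, Nrxn3 and Nlgn3 stood at 0.12 and 0.13, and Nlgn2 turned to -0.10. As log2 ratio of TPM + 1, Nrxn2 turned to 0.03.

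Some cell type markers moved with the pools as well. The 11 neuron markers had a median ratio of 0.13, with 8 higher in pool 1, and the 8 progenitor markers one of 0.09, with 7 higher in pool 1. The 6 measured markers of the oligodendrocyte lineage had a median ratio of 0.19, with 5 higher in pool 1. Among the 9 forebrain markers the ratios ran from -0.31 for Emx1 and -0.20 for Lhx2 to 0.52 for Dlx1, 0.66 for Dlx2 and 0.83 for Nkx2-1, the last 2 past 1.5-fold. Emx1 is known from the dorsal forebrain, and Dlx1, Dlx2 and Nkx2-1 from the ventral forebrain. The 6 mesenchyme markers were all lower in pool 1 with a median of -0.37, and the 5 erythroid markers likewise with -0.44. The part of these markers' cells and regions in the ratios of the members was not tested. Of the partners, 4 passed 1.5-fold: Nxph2, Grid1 and Magi2 were lower in pool 1 with ratios of -0.71, -0.74 and -0.59, and Nxph3 was higher with 0.59. Nxph2 and Nxph3 had 13 to 29 counts per library.

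**Figure D5:**
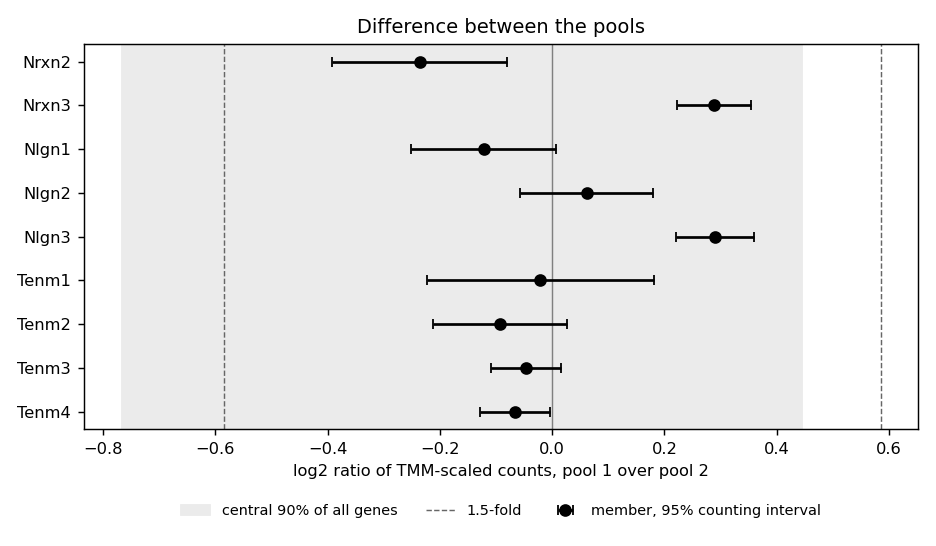
Log2 ratio of TMM-scaled counts, pool 1 over pool 2, for each member (points) with exact binomial intervals at 95% for counting error (bars). The grey band spans the 5th to 95th percentile of the 19063 genes and the dashed lines mark 1.5-fold, and Nrxn3 and Nlgn3 stand at 0.29 while all other members lie between -0.24 and 0.06.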

How the data were processed

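Polyadenylated RNA was measured in 2 forebrain pools of 1 group. For each library, tables of genes and of transcripts on mm10 with GENCODE M4 and M21 were deposited, per the file headers. The deposited expected counts are estimated reads with shared matches divided, not normalised. The deposited TPM values are length-scaled abundances summing to 1000000 per library. Posterior means of TPM, also deposited, and the bounds of their intervals were read as a score. The column layout is that of RSEM, but the aligner, the quantifier, their versions, the use of strand and the level of the interval were not given in the sources used here.

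M21 tables were used, with M4 as an alternative. Identifiers were joined to the GENCODE M21 annotation of GRCm38. Entries that name no gene held 5.74e-05% of the counts in pool 1 and 9e-05% in pool 2 and were left out. Inclusion and start classes were computed from annotated models. For TMM scaling in edgeR 4.0.16 the expected counts of genes whose mean count reached 10 were rounded to whole numbers, and genes past 1.5-fold were called. DESeq2 1.42.0 gave size factors as an alternative. The step was tested on simulated data. Scripts used matplotlib 3.10.9, pandas 2.3.3, scipy 1.17.1, numpy 2.4.6 and Python 3.11.15, and R 4.3.3. Exon sequences came from GENCODE M21 transcripts.

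Members, lists and rules were chosen with earlier results of these data known. Named were all 9 members, every gene of partner lists with 10 or fewer genes, the 4 highest and 2 lowest of longer ones and any past 1.5-fold, the highest and lowest marker, transcripts leading or with at least 10% of the TPM, and segments spanned by at least 1 TPM with an inclusion between 5% and 95% in a pool. Tenm4-201, Tenm4-202, Nlgn3-202, Nlgn3-206, Nrxn3-202, Nrxn3-203, Nlgn1-201, Nlgn1-202, the 21-base exon of Tenm1, and the markers Emx1, Lhx2, Dlx2 and Nkx2-1 were named outside this rule after their values were seen. Alternatives tried were M4, the posterior mean, counts in place of TPM, coding transcripts alone, other detection limits, other scalings, and leaving out each pool. A partner gene and an exon sequence are not reported here.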

Additional observations from a re-analysis of the deposited data

How the results depend on the processing

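The members' median level of 13.6 TPM was 14.5 TPM in release M4, 14.1 TPM by the posterior mean and 10.3 TPM over protein-coding transcripts alone, and 13.4 to 13.7 TPM in single pools. The beta-type share of Nrxn3 was 10.5% by expected counts, and 21.7% to 22.7% in single pools. That of Nrxn2 was 29.1% by counts and 31.8% to 54.4% in single pools. The members' median pool ratio was -0.21 with spike-in scaling and -0.11 as log2 ratio of TPM + 1. All 9 members were detected in each single pool, and 57 to 58 of the partners. By expected counts 18 of 28 transcript shares moved by over 1.5 times, and in M4 3 of 28. Of 17 segment inclusions 4 moved so far by counts and 4 in M4. No paired analysis was possible because the libraries form 1 group. Depth is not the limit for gene levels, but transcript shares rest on how the authors' tool divided shared reads, and 2 pools give each SD a single degree of freedom.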
